A study of Mus musculus with 6 samples.

Results

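The 10 genes described here encode receptors of the TNF receptor superfamily: Tnfrsf4 (OX40), Tnfrsf18 (GITR), Tnfrsf9 (4-1BB), Tnfrsf25 (DR3), Tnfrsf1b (TNFR2), Tnfrsf1a (TNFR1), Cd27, Tnfrsf14 (HVEM), Tnfrsf8 (CD30) and Fas. They were chosen by name, with earlier results of these data known, as receptors that T cells are known to use, and each was found as a row of the deposited table, which held 23420 rows in all. Of the 10 genes, 9 reached the level needed for testing, 1 TPM or more in at least 3 libraries, as did 10476 genes in total. TPM is a transcript abundance corrected for gene length and scaled to a fixed library total, so levels of different genes can be roughly set side by side. It does not correct for differences between genes in the amplification of their RNA.

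The study sequenced induced T (iT) cells to describe their transcriptome, with 3 libraries of the CD4 single-positive (CD4SP) and 3 of the CD8 single-positive (CD8SP) kind, which are compared here. A library was made from 1000 sorted cells. Both populations descended from iR9-ESC, mouse embryonic stem cells of C57BL/6 background (CD45.2+). In these a doxycycline-inducible Runx1-p2a-Hoxa9 cassette had been placed in the Rosa26 locus and clones had been selected with hygromycin. To switch the cassette on, doxycycline was given in culture while blood progenitors were induced from the iR9-ESC and matured on feeder cells. These progenitors were transplanted into sublethally irradiated young adult B-NDG mice (CD45.1+), an immunodeficient strain with the Prkdc Scid mutation and no functional Il2rg. The recipients then drank water with co-trimoxazole against infection. The study describes engraftment without doxycycline, and doxycycline feeding of recipients in another analysis, and does not say which held for the sequenced mice. Spleen cells were sorted on a gate that included CD45.2+, Ter119- and CD11b-, and as CD4+ or CD8+, without CD3 or a T cell receptor. No untreated or wild-type T cells were part of the comparison. A figure legend of the study calls each column a biological replicate and also counts 3 sample repeats per population, without tying them to mice. The labels do not say whether the replicates were separate mice, so the p-values measure the spread between these libraries, which may be technical.

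The sorted populations carried the markers of their labels. All 6 T cell markers examined, among them Cd3d and Lck, were at 1 TPM or more in every library. Cd4 was at 279 to 331 TPM in CD4SP and at 0.104 TPM or listed at 0 in CD8SP libraries, while Cd8a was at 0.319 to 2.93 TPM in CD4SP and 1038 to 1161 TPM in CD8SP libraries. Sequencing depth is unknown because TPM keeps no read counts. Ribosomal protein transcripts (85 genes) took 24.1% to 28.8% of TPM in CD4SP and 32.2% to 36.0% in CD8SP libraries. The median log2 fold change over all tested genes was 0.28 in favour of CD4SP, and each difference below can be read against that shift. CD8 replicates 1 and 2 resembled each other more than other pairs did, with a median absolute log2 difference of 0.075 against 0.17 to 0.313, and counting them as 1 library left the same receptor genes called.

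Receptors of this superfamily sit in the cell membrane and bind trimeric ligands of the TNF superfamily. One branch (OX40, GITR, 4-1BB, CD27, CD30, TNFR2 and HVEM) has no death domain, recruits TRAF adaptor proteins and feeds the canonical and alternative NF-kB pathways, which gives T cells costimulation and survival signals. The other branch (TNFR1, Fas and DR3) carries a cytoplasmic death domain that can recruit caspase-activating adaptors. In mice, OX40, GITR, TNFR2, 4-1BB and DR3 are well known on regulatory T cells, and most of these receptors also appear on conventional T cells after antigen stimulation. RNA levels say nothing direct of receptor protein on the surface. In bulk samples, fewer cells of a type and less RNA per cell cannot be told apart.

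Of the 10 genes, 7 lie on chromosome 4 within 10.82 Mb (GRCm38, GENCODE M21). In ascending order these are Tnfrsf1b (chr4:145213463-145246870, minus strand), Tnfrsf8 (chr4:145267137-145315164, minus strand), Tnfrsf9 (chr4:150914562-150946102), Tnfrsf25 (chr4:152115934-152120119), Tnfrsf14 (chr4:154921933-154928563, minus strand), Tnfrsf4 (chr4:156013843-156016612) and Tnfrsf18 (chr4:156026164-156028895). Tnfrsf4 and Tnfrsf18 are read in the same direction with 9.551 kb between them. On chromosome 6, Cd27 (chr6:125232622-125237010, minus strand) lies 112.4 kb from Tnfrsf1a (chr6:125349362-125362484), and Fas lies alone on chromosome 19 (chr19:34290666-34327772). All 10 are annotated as protein coding.

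Promoter sequence is shown for the 4 receptor genes that were called higher in CD4SP, since they moved together, and for Tnfrsf9, whose libraries disagreed. Each run is the 250 bases before a RefSeq start site (GRCm38.p6), on the strand of the gene, with capitals for matches to 3 motifs of factors at work in activated T cells. The motifs were the kappa B consensus of NF-kB (10 letters), AP-1 (TGANTCA) and RUNX (TGTGGT), all searched on both strands. Tnfrsf25 and Tnfrsf9 have more than 1 start site in RefSeq, and the start shown for each is the one whose window held a kappa B match.
Tnfrsf4, chr4:156013445-156013694, plus strand: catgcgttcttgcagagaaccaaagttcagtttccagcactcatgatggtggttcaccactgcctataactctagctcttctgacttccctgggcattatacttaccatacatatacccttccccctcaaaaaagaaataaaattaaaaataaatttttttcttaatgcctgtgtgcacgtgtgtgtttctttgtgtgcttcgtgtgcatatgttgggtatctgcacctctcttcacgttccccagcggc
Tnfrsf18, chr4:156026072-156026321, plus strand: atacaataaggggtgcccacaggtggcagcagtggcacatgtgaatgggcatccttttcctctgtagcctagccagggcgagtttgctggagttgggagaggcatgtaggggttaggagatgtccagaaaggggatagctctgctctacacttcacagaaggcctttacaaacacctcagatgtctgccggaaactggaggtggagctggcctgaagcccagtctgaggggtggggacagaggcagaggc
Tnfrsf25, chr4:152116093-152116342, plus strand: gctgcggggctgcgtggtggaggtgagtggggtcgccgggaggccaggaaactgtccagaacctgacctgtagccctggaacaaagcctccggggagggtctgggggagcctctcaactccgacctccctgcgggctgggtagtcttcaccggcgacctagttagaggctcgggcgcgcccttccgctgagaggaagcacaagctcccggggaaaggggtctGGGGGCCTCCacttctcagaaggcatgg
Tnfrsf1b, chr4:145246871-145247120, minus strand: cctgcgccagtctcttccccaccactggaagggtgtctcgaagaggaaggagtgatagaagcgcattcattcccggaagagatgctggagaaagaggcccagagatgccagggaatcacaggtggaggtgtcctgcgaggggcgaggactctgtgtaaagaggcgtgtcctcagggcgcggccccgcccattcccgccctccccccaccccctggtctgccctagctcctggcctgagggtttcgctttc
Tnfrsf9, chr4:150927749-150927998, plus strand: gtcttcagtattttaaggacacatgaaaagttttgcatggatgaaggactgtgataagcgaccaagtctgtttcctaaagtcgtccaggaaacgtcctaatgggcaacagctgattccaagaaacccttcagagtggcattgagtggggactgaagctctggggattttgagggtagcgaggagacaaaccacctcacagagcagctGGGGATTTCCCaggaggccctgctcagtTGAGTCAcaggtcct

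No letters of the 3 motifs were found in the 300-base windows (250 before to 50 after the start) of Tnfrsf4, Tnfrsf18 or Tnfrsf1b. The Tnfrsf25 run holds a kappa B match, GGGGGCCTCC, at -28 to -19 from the start, and the same letters recur at 37 to 46 after it, beyond the bases shown. In the Tnfrsf9 run 2 overlapping kappa B matches, GGGGATTTCC and GGGATTTCCC, lie at -43 to -33 and an AP-1 match, TGAGTCA, at -15 to -9. A RUNX match follows at 11 to 16 after that start. The 10 genes had 12 windows in RefSeq. A kappa B match was present in 3 of these 12 (Tnfrsf25, Tnfrsf8 and Tnfrsf9) and in 8.46% of all 32851 mouse windows, an AP-1 match in 3 of 12 (Fas, Tnfrsf8 and Tnfrsf9) and 7.81% of all, and a RUNX match in 2 of 12 (Tnfrsf25 and Tnfrsf9) and 16.8% of all. A match describes letters only and is no evidence of a bound factor.

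The comparison of CD4SP with CD8SP iT cells found 4 receptor genes higher in CD4SP: Tnfrsf4 by 26.8-fold, Tnfrsf25 by 11.4-fold, Tnfrsf18 by 4.60-fold and Tnfrsf1b by 3.47-fold. A gene was called when limma, fitted to log2(TPM + 1) over all 10476 tested genes, gave a Benjamini-Hochberg adjusted p under 0.05 and a difference over 2-fold. By that criterion 4 of the 9 tested receptor genes were called higher in CD4SP, where 7.92% of all tested genes were, and 0 were called higher in CD8SP, where 1.80% of all tested genes were. At an unadjusted limma p under 0.05, 6 of the 9 were higher in CD4SP and 0 in CD8SP, against 31.4% and 5.69% of all tested genes. In 6 of 9 every CD4SP library lay above every CD8SP library, a separation seen in 36.6% of all tested genes. The opposite separation, every CD8SP library above every CD4SP library, was seen in 0 of 9 and in 6.61% of all tested genes. The median log2 fold change of the 9 genes was 1.65.

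**Figure D1:**
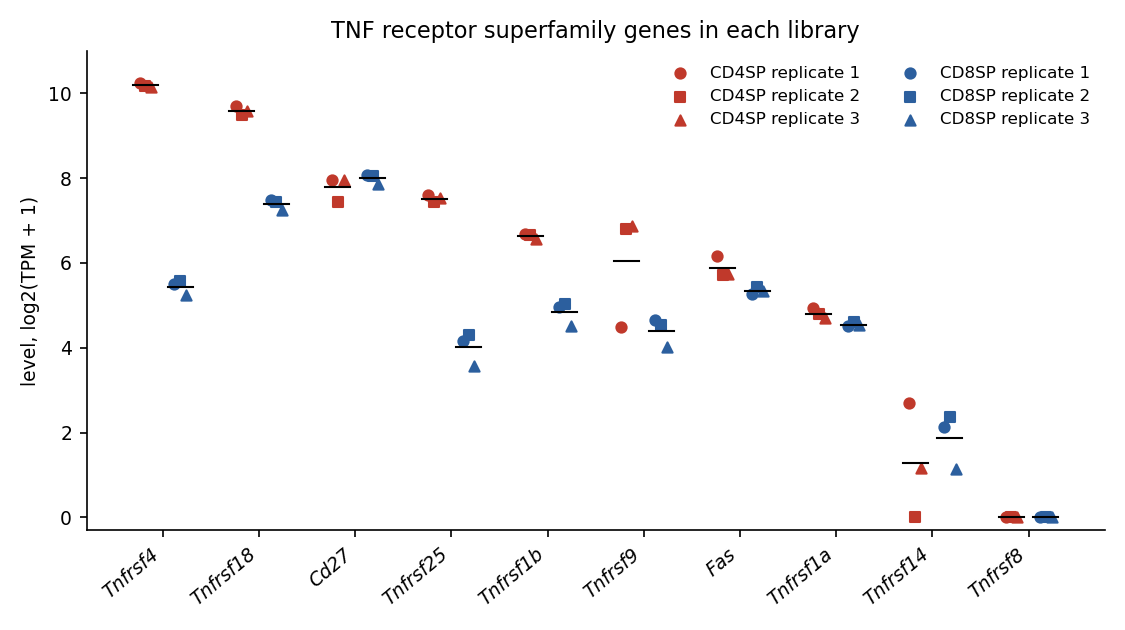
Level of each receptor gene, as log2(TPM + 1), in the 3 CD4SP (red) and 3 CD8SP (blue) libraries, with a bar at the mean of each population. The populations stand far apart for Tnfrsf4, Tnfrsf18, Tnfrsf25 and Tnfrsf1b, CD4SP replicate 1 falls among the CD8SP libraries for Tnfrsf9, and Tnfrsf8 is listed at 0 throughout.

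Tnfrsf4 encodes OX40, a costimulatory receptor that appears on CD4 T cells after activation and is constitutive on mouse regulatory T cells. Its level in replicates 1 to 3 was 1201, 1157 and 1124 TPM for CD4SP and 44.3, 46.4 and 37.0 TPM for CD8SP, the order kept for every gene below. Every CD4SP library was far above every CD8SP library, and within each population the libraries lay close together. The log2 fold change was 4.74 (SE 0.12, 95% interval 4.47 to 5.02, limma adjusted p = 2.38e-07). In CD4SP its transcript ranked at the 98.8th percentile of tested genes, against the 72.6th to 74.9th in CD8SP. Under 16 other settings of the analysis the log2 fold change stayed between 4.44 and 4.81 and the gene was called each time.

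Its neighbour Tnfrsf18 encodes GITR, a costimulatory receptor of regulatory and activated T cells. Levels were 835, 712 and 769 TPM among CD4SP libraries against 177, 173 and 152 TPM among CD8SP ones. The populations did not overlap, but unlike Tnfrsf4 the gene was abundant in both, at the 92.7th percentile of tested genes or higher in every CD8SP library. The log2 fold change was 2.20 (SE 0.115, 95% interval 1.94 to 2.46, limma adjusted p = 1.41e-05), and it ranged from 1.90 to 2.26 over the other settings, called in all 16. Exons of Tnfrsf18 overlap an antisense gene, Gm16008, and since the use of strand was not stated, reads of the pair could not be told apart.

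The neighbours were also compared directly, by their ratio within each library. The log2 ratio of Tnfrsf4 to Tnfrsf18, taken on TPM + 1, was 0.52, 0.70 and 0.55 in CD4SP and -1.97, -1.87 and -2.01 in CD8SP libraries. Tnfrsf4 thus had the higher TPM of the pair in every CD4SP library and the lower in every CD8SP library. The means differed by 2.54 with an exact two-sided permutation p of 0.1, the smallest that 3 libraries against 3 can give.

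Tnfrsf25 encodes DR3, the receptor of the ligand TL1A (Tnfsf15), which carries a death domain but acts mainly as a costimulator on T cells. Values were 191, 172 and 183 TPM (CD4SP) against 16.8, 18.7 and 10.9 TPM (CD8SP). The gap between the populations was far wider than the spread within either. With a log2 fold change of 3.51 (SE 0.196, 95% interval 3.06 to 3.96, limma adjusted p = 2.02e-05) it was the second largest difference among the receptor genes, and it was called in all 16 other settings (range 3.21 to 3.66).

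TNF has a pair of receptors, of which 1 was called. Tnfrsf1b encodes TNFR2, which lacks a death domain and is known for its role in the expansion of regulatory T cells. It was at 102, 99.5 and 93.4 TPM among CD4SP libraries against 30.1, 31.8 and 21.9 TPM among CD8SP ones, without overlap. Its log2 fold change was 1.79 (SE 0.166, 95% interval 1.41 to 2.17, limma adjusted p = 0.000276), called in all 16 other settings with a range of 1.49 to 1.89. Tnfrsf1a, which encodes the death domain receptor TNFR1, was at 29.6, 26.6 and 25.0 TPM (CD4SP) against 21.7, 23.3 and 22.2 TPM (CD8SP). These values did not overlap either, but the log2 fold change of 0.26 (SE 0.149, 95% interval -0.081 to 0.60, limma adjusted p = 0.24) did not pass the test, was close to the median of all tested genes, and changed sign to -0.036 and -0.053 when the libraries were rescaled by median-of-ratios or quantile normalization.

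The log2 ratio of Tnfrsf1b to Tnfrsf1a, on the same scale, was 1.75, 1.86 and 1.86 in CD4SP and 0.46, 0.44 and -0.019 in CD8SP libraries. The receptor without a death domain had the higher TPM of the pair in every CD4SP library, while in CD8SP replicate 3 both were nearly equal. The means differed by 1.53, again with an exact two-sided permutation p of 0.1, the smallest possible.

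**Figure D2:**
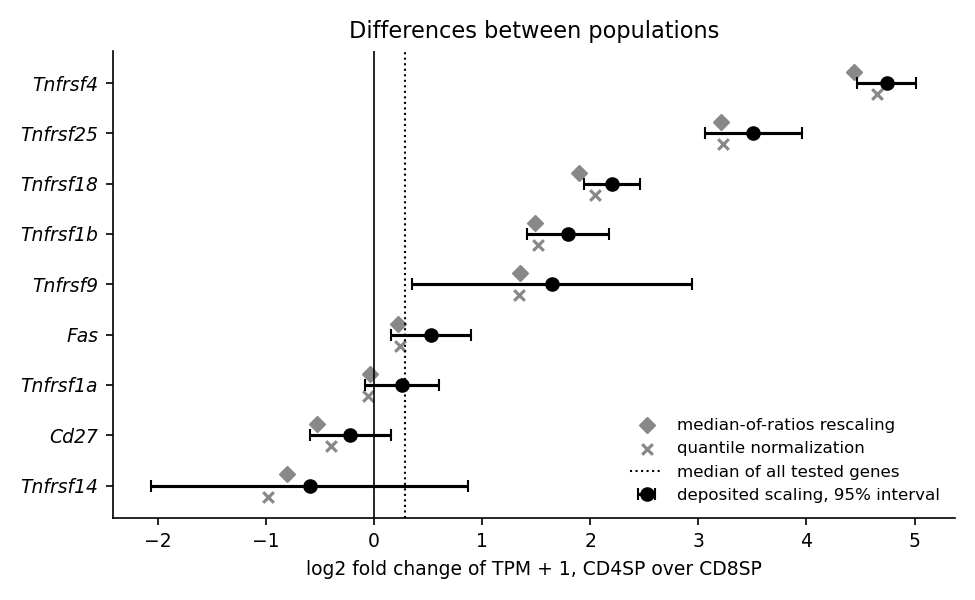
Log2 fold change of TPM + 1 (CD4SP over CD8SP) of the 9 tested receptor genes, with 95% intervals from limma (black), and the values after median-of-ratios rescaling (grey diamonds) and quantile normalization (grey crosses). The dotted line marks the median of all tested genes, 0.28, and both rescalings move every gene to the left, taking Tnfrsf1a from 0.26 to just below 0.

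Tnfrsf9 encodes 4-1BB, an activation-induced costimulatory receptor used to promote CD8 T cell responses and also found on regulatory T cells. It was at 21.6, 111 and 115 TPM among CD4SP libraries against 24.2, 22.2 and 15.3 TPM among CD8SP ones. CD4SP replicate 1 lay among the CD8SP libraries and the other CD4SP libraries lay well above them. The log2 fold change of 1.65 (SE 0.566, 95% interval 0.36 to 2.94) did not pass the test (limma adjusted p = 0.0714). Without CD4SP replicate 1 it was 2.43 with a limma adjusted p of 0.00091, the only setting of the 16 in which the gene was called. In CD4SP replicate 1, of 5084 genes averaging at least 20 TPM in the other CD4SP libraries, 7 lay more than 4-fold below both of them, Tnfrsf9 included. The corresponding count was 12 of 5341 genes in CD4SP replicate 2 and 6 of 5103 in CD4SP replicate 3.

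Fas, the death receptor that limits T cell responses, was at 71.1, 51.7 and 52.1 TPM (CD4SP) against 37.3, 42.4 and 39.5 TPM (CD8SP). The libraries did not overlap, but the log2 fold change of 0.53 (SE 0.163, 95% interval 0.16 to 0.90, limma adjusted p = 0.0518) was under 2-fold and just missed the adjusted threshold. Under the other settings it ranged from 0.23 to 0.60 with adjusted p from 0.0133 to 0.327.

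Cd27 encodes a costimulatory receptor of naive and memory T cells that binds CD70. Its levels were 247, 171 and 248 TPM among CD4SP libraries against 268, 265 and 231 TPM among CD8SP ones. The populations overlapped, and CD4SP replicate 2 was the lowest of the 6 libraries. The log2 fold change of -0.22 (SE 0.163, 95% interval -0.59 to 0.16, limma adjusted p = 0.362) did not pass the test. It kept its sign in all 16 other settings, from -0.52 to -0.040, and passed an adjusted p of 0.05 only after median-of-ratios rescaling (limma adjusted p = 0.0159), at a difference still under 2-fold.

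The remaining pair was near or at the bottom of the range. Tnfrsf14 encodes HVEM, which binds LIGHT (Tnfsf14), BTLA and CD160, and was at 5.51, 0 and 1.23 TPM (CD4SP) against 3.42, 4.16 and 1.19 TPM (CD8SP). The values overlapped, the log2 fold change of -0.59 (SE 0.643, 95% interval -2.06 to 0.87, limma adjusted p = 0.531) did not pass the test, and without CD4SP replicate 2, where the gene was listed at 0, it was 0.05. Tnfrsf8, which encodes CD30, was listed at 0 in all 6 libraries and was not tested.

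The order of the receptor transcripts differed between the populations. In CD4SP libraries Tnfrsf4 came first and Tnfrsf18 second, neither overlapping the next gene, followed by Cd27 and Tnfrsf25, whose libraries overlapped each other. Tnfrsf1b, Tnfrsf9 and Fas came next with overlapping neighbours, then Tnfrsf1a and Tnfrsf14. In CD8SP libraries Cd27 came first and Tnfrsf18 second without overlap, Tnfrsf4 and Fas came next with overlapping libraries, and Tnfrsf1b, Tnfrsf1a, Tnfrsf9 and Tnfrsf25 formed a run in which each overlapped the next. Tnfrsf25 thus stood at rank 4 in CD4SP and rank 8 in CD8SP.

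Summed over the 10 genes, the receptor transcripts reached 2605 ± 101 TPM in CD4SP and 593.6 ± 54.1 TPM in CD8SP libraries (SD, n = 3 each). Of this sum Tnfrsf4 made up 44.6% ± 1.62 (SD, n = 3) in CD4SP and 7.16% ± 0.225 (SD, n = 3) in CD8SP. Cd27 showed the opposite, with 8.49% ± 1.45 in CD4SP and 43.0% ± 0.619 in CD8SP (SD, n = 3 each). The share of Tnfrsf18 was nearly the same, at 29.6% ± 1.22 and 28.2% ± 0.567 (SD, n = 3 each). Fas and Tnfrsf1a, whose levels differed little, took 2.23% ± 0.346 and 1.04% ± 0.072 of the sum in CD4SP and 6.73% ± 0.72 and 3.79% ± 0.355 in CD8SP libraries (SD, n = 3 each). These shares add to a whole, so a large rise in 1 gene lowers the shares of the others.

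**Figure D3:**
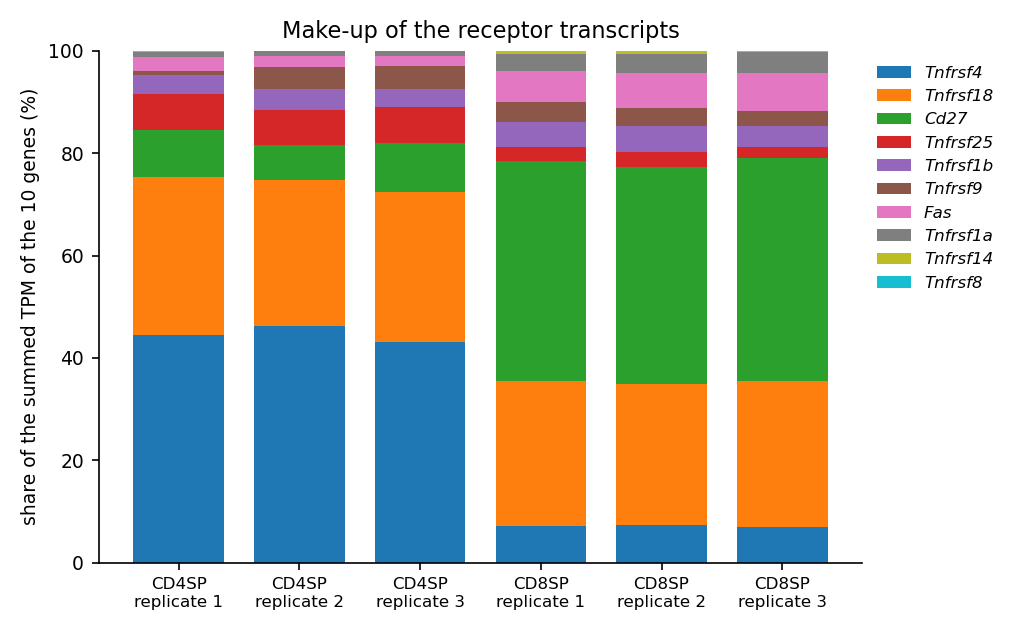
Share of each receptor gene in the summed TPM of the 10 genes, in percent, 1 stacked bar per library. Tnfrsf4 and Tnfrsf18 fill most of the 3 CD4SP bars (means 44.6% and 29.6%), and Cd27 and Tnfrsf18 most of the 3 CD8SP bars (means 43.0% and 28.2%).

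Among the ligands and other binding partners of these receptors, 10 of 13 genes were tested, of which 5 were called in favour of CD4SP and 1 (Cd160) in favour of CD8SP, against 7.92% and 1.80% of all tested genes, with a median log2 fold change of 1.04. Lta, which encodes lymphotoxin alpha, a ligand of both TNF receptors, was at 80.9, 78.0 and 82.9 TPM among CD4SP libraries against 24.8, 28.0 and 15.5 TPM among CD8SP ones (limma log2 fold change 1.82, adjusted p = 0.000946). Tnf itself was at 14.8, 10.5 and 9.09 TPM (CD4SP) against 6.34, 4.91 and 5.62 TPM (CD8SP), a log2 fold change of 0.89 that did not reach 2-fold (limma adjusted p = 0.0298). Tnf was called without CD4SP replicate 3 (limma log2 fold change 1.03, adjusted p = 0.038) and stood at 0.53 (adjusted p = 0.161) after quantile normalization. The populations did not overlap for Lta or Tnf.

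Ligand genes of OX40, GITR and DR3 were at or near 0. Tnfsf4, which encodes OX40 ligand, was at 1.69 TPM in CD4SP replicate 1, listed at 0 in the other CD4SP libraries, and at 0.34, 0.55 and 0.60 TPM in CD8SP libraries. Tnfsf18, which encodes GITR ligand, was listed at 0 in all libraries but CD8SP replicate 3, with 0.26 TPM. The DR3 ligand gene Tnfsf15 was at 0.13, 1.03 and 0.45 TPM in CD4SP and listed at 0 in CD8SP libraries. These 3 did not reach the level for testing, and all 3 are ligands known mainly from antigen-presenting and endothelial cells.

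The partners of HVEM moved in both directions while HVEM itself overlapped. Tnfsf14 (LIGHT) was at 19.0, 18.7 and 16.6 TPM among CD4SP libraries against 7.96, 6.44 and 3.25 TPM among CD8SP ones (limma log2 fold change 1.54, adjusted p = 0.00753). Btla, an inhibitory receptor that HVEM engages, was at 130, 102 and 130 TPM against 58.6, 60.7 and 51.6 TPM (limma log2 fold change 1.06, adjusted p = 0.00202). Cd160, another HVEM partner known from cytotoxic lymphocytes, was at 22.6, 19.6 and 26.5 TPM (CD4SP) against 99.5, 105 and 61.1 TPM (CD8SP), with a limma log2 fold change of -1.88 (adjusted p = 0.00107). The CD4SP difference of Btla was close to the 2-fold limit and fell below it, to 0.76 and 0.81, after median-of-ratios and quantile rescaling. It was also below that limit without ribosomal protein genes (0.91) and without CD8SP replicate 3 (0.995).

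Cd70, the ligand of CD27, reached 12.9, 1.95 and 2.64 TPM in CD4SP libraries, and CD8SP libraries all listed it at 0 (limma adjusted p = 0.0171). It reached the level for testing only through the CD4SP libraries, was low apart from replicate 1, and without CD8SP replicate 3 its limma adjusted p was 0.0575. Tnfsf8, which encodes CD30 ligand, was at 27.5, 24.8 and 19.8 TPM among CD4SP libraries against 11.2, 12.01 and 10.8 TPM among CD8SP ones (limma log2 fold change 1.01, adjusted p = 0.00662), although the receptor gene Tnfrsf8 was listed at 0. This call stood at the limit of 2-fold and was lost in 7 of 16 other settings. Values of 2 further ligands were looked up after the results were known. Tnfsf9 (4-1BB ligand) was at 20.7, 10.2 and 3.62 TPM (CD4SP) against 2.03, 4.18 and 0.60 TPM (CD8SP) (limma adjusted p = 0.0607), and Fasl at 40.2, 74.6 and 83.7 TPM against 132, 52.2 and 123 TPM (limma adjusted p = 0.305). Both overlapped between the populations. Tnfsf9 was called higher in CD4SP without CD4SP replicate 3 (limma log2 fold change 2.41, adjusted p = 0.0303) and without CD8SP replicate 2 (2.23, 0.0485). It was called with the replicate block as well (limma log2 fold change 1.82, adjusted p = 0.015). Over all 6 libraries Tnfsf9 reached the level for testing only through the CD4SP libraries.

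The genes that carry the receptors' signal were grouped by role. Among 9 TRAF adaptors and cIAPs (the ubiquitin ligases that TRAF2 recruits), 2 were called in favour of CD4SP and 0 in favour of CD8SP. Over all tested genes these shares were 7.92% and 1.80%. The median log2 fold change of the 9 was 0.78. With an unadjusted limma p under 0.05, 6 of the 9 were higher in CD4SP and 0 in CD8SP. The corresponding shares of all tested genes were 31.4% and 5.69%. The 6 higher in CD4SP included Traf5, which was listed at 0 in CD8SP replicate 3 and was at 0.82 TPM in CD8SP replicate 2. Traf5 reached the level for testing only through the CD4SP libraries. Birc3, which encodes cIAP2, was at 67.5, 46.1 and 61.0 TPM among CD4SP libraries against 25.1, 28.5 and 26.2 TPM among CD8SP ones (limma log2 fold change 1.09, adjusted p = 0.00396). Birc3 fell under 2-fold after either rescaling (0.79 in both), without ribosomal protein genes (0.94) and without CD4SP replicate 1 (0.97). Tank, a TRAF-binding regulator of NF-kB, was at 90.4, 79.9 and 96.2 TPM against 30.3, 30.5 and 43.4 TPM (limma log2 fold change 1.35, adjusted p = 0.0015).

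The NF-kB arm, 15 genes of kinases, subunits and inhibitors, had 2 called higher in CD4SP and 0 in CD8SP. Its median log2 fold change was 0.49. At an unadjusted limma p under 0.05, 8 of the 15 were higher in CD4SP and 0 in CD8SP, against 31.4% and 5.69% of all tested genes. Nfkbia, which encodes the inhibitor IkBa and is itself an NF-kB target, was at 463, 429 and 445 TPM (CD4SP) against 160, 169 and 153 TPM (CD8SP) (limma log2 fold change 1.47, adjusted p = 6.98e-05). Nfkb1, the p105/p50 subunit gene, was at 125, 81.4 and 118 TPM against 43.3, 41.7 and 36.4 TPM (limma log2 fold change 1.38, adjusted p = 0.00174). Both kept their call in all 16 other settings. In the death domain group, of 8 adaptor, kinase and caspase genes limma called 0, with a median log2 fold change of 0.28, close to that of all tested genes, and 1 gene (Casp8, named after its value was seen, log2 fold change 0.46) had an adjusted p under 0.05, as did 20.8% of all tested genes. At an unadjusted p under 0.05, 3 of the 8 were higher in CD4SP, where 31.4% of all tested genes were. In all, 10 of the 42 tested genes of these ligand, adaptor, death domain and NF-kB lists were called, 9 of them in favour of CD4SP. Over all tested genes the calls took 7.92% in favour of CD4SP and 1.80% in favour of CD8SP, and 81.5% of all calls were higher in CD4SP.

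**Figure D4:**
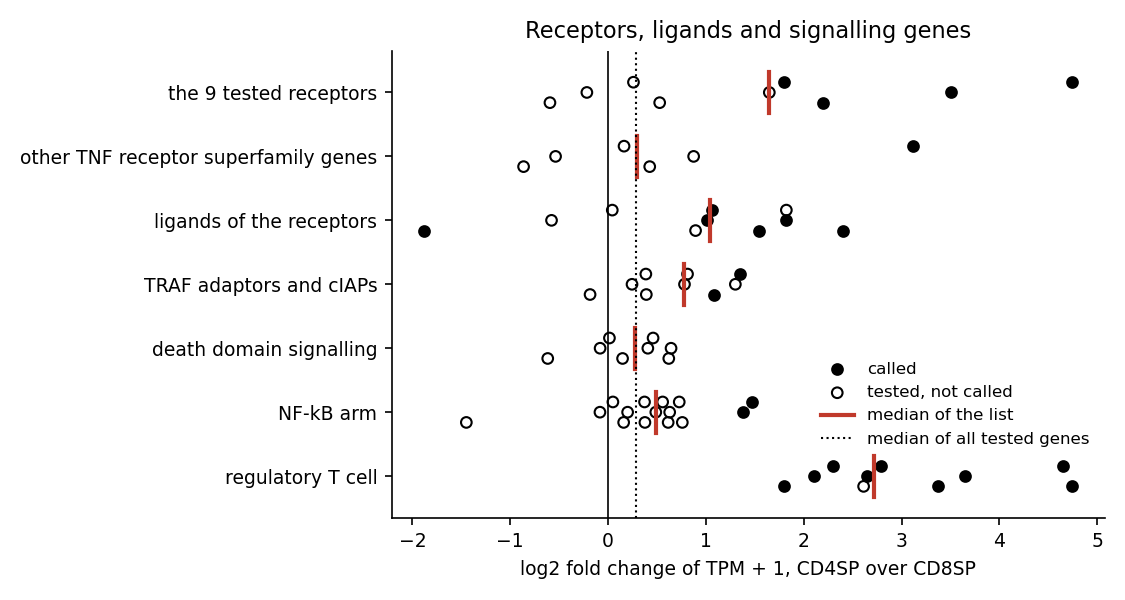
Log2 fold change of TPM + 1 (CD4SP over CD8SP) of each tested gene by list, with called genes filled, uncalled genes open, a red bar at the list's median and a dotted line at the median of all tested genes (0.28). The receptors spread from -0.59 to 4.74, the death domain genes cluster about the general median, and the regulatory T cell genes lie to the right with a median of 2.72.

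Of 18 other genes of the superfamily, 7 were listed at 0 in all libraries and 6 were tested, with 1 called in favour of CD4SP and 0 in favour of CD8SP, against 7.92% and 1.80% of all tested genes. At an unadjusted limma p under 0.05, 2 of the 6 were higher in CD4SP and 1 in CD8SP, against 31.4% and 5.69% of all. The 2 higher in CD4SP were Cd40 and Tnfrsf22. With only 0.96 TPM in CD8SP replicate 1, Tnfrsf22 reached the level for testing only through the CD4SP libraries. Cd40, best known from B cells and other antigen-presenting cells, was at 10.6, 9.48 and 6.63 TPM in CD4SP and at 0.43 TPM or listed at 0 in CD8SP libraries (limma log2 fold change 3.11, adjusted p = 0.000276). With CD8SP values this low the size rests on the pseudocount, and it was 5.66 with a pseudocount of 0.1, and the gene reached the level for testing only through the CD4SP libraries. The 6 B cell markers summed to 17.6 to 23.9 TPM in CD4SP and 27.4 to 29.3 TPM in CD8SP libraries. Of these, Ms4a1 and Pax5 were listed at 0 in all 6 libraries. Transcripts of Cd79a reached 2.23 to 3.56 TPM in CD4SP and 1.52 to 1.73 TPM in CD8SP libraries, without overlap and without passing the test (limma log2 fold change 0.53, adjusted p = 0.17). Cd79b was at 10.9 to 17.4 TPM in CD4SP and 18.5 to 21.6 TPM in CD8SP libraries and did not pass it either (limma adjusted p = 0.121), and Cd22 was called in favour of CD8SP (limma log2 fold change -1.27, adjusted p = 0.018). Among 8 dendritic cell markers, H2-Aa and Cd74 were higher in CD4SP (log2 fold changes 2.09 and 1.73, limma adjusted p = 0.0061 and 0.00296) and Itgax higher in CD8SP (-3.87, 0.000109), Clec9a was listed at 0 throughout, and the list summed to 46.3 to 69.5 TPM in CD4SP and 31.9 to 42.0 TPM in CD8SP libraries. Itgax, at 0.95, 0.08 and 0 TPM in CD4SP libraries, reached the level for testing only through the CD8SP libraries. The size of its difference rests on the pseudocount. The part of these B cell and dendritic cell markers in the Cd40 difference was not tested. Relt, named after its values were seen, was at 26.6, 17.6 and 25.4 TPM among CD4SP libraries against 43.9, 46.2 and 37.4 TPM among CD8SP ones (limma log2 fold change -0.86, adjusted p = 0.0162). It was under 2-fold and therefore not called, was called higher in CD8SP after median-of-ratios or quantile rescaling and without ribosomal protein genes, and shares sequence with Gm20949, so its reads may have been split.

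Genes of regulatory T cells were higher in CD4SP libraries alongside the 4 receptors. Of 10 such genes, a list chosen with earlier results of these data known, 9 were called in favour of CD4SP and 0 in favour of CD8SP, against 7.92% and 1.80% of all tested genes. Among them were Il2ra, the high-affinity interleukin-2 receptor chain, at 95.7, 92.0 and 82.1 TPM (CD4SP) against 8.77, 8.46 and 6.31 TPM (CD8SP) (log2 fold change 3.37), Ctla4 at 866, 814 and 937.5 TPM against 144, 150 and 124 TPM (2.64), and Ikzf2, which encodes Helios, at 44.9, 35.6 and 48.3 TPM against 5.28, 5.89 and 4.76 TPM (2.79). Gpr83, at 19.5 to 27.9 TPM in CD4SP, was listed at 0 in all CD8SP libraries, so it was tested only through its CD4SP libraries and its fitted difference is no bound. Lrrc32 (0.91 to 1.16 TPM in CD8SP) and Ikzf4 (0.75 to 1.43 TPM in CD8SP), tested only through their CD4SP libraries too, were among the 9 called. The exception was Foxp3, the lineage factor, whose annotated transcript shares sequence with Ccdc22, at 142, 6.56 and 167 TPM among CD4SP libraries against 7.48, 7.48 and 10.05 TPM among CD8SP ones (limma log2 fold change 2.61, adjusted p = 0.10). Without CD4SP replicate 2 Foxp3 was called (limma log2 fold change 4.06, adjusted p = 8.67e-05), as it was with library weights and with the replicate block (limma adjusted p = 0.0438). The CD4SP library low in Foxp3 was replicate 2, whereas the one low in Tnfrsf9 was replicate 1. The part of the regulatory T cell genes in the receptor differences was not tested.

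Markers of other cell types known to carry some of these receptors were low or listed at 0, apart from a few. Of the natural killer cell markers, Ncr1 and Klra8 were listed at 0 in all libraries, while Eomes and Klrb1c, which CD8 T cells can also express, were higher in CD8SP (log2 fold changes -2.37 and -1.86, limma adjusted p = 5.52e-05 and 0.00426). Klrb1c, at 1.37, 0.68 and 1.82 TPM in CD4SP libraries, reached the level for testing only through the CD8SP libraries. The list of 4 natural killer cell markers summed to 9.879 to 12 TPM in CD4SP and 55.1 to 64.5 TPM in CD8SP libraries. The 7 myeloid markers summed to 17.7 to 32.9 TPM in CD4SP and 20.7 to 24.2 TPM in CD8SP libraries, with S100a8 and S100a9 listed at 0 throughout, Lyz2 called higher in CD4SP and Cd68 called higher in CD8SP. Cd68, at 1.45, 0.60 and 6.59 TPM in CD4SP libraries, reached the level for testing only through the CD8SP libraries. The part of these natural killer cell and myeloid markers in the receptor differences was not tested either.

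The genes whose pattern over the 6 libraries was most like that of each called receptor were found from the root mean square (RMS) difference of their log2(TPM + 1) values, each centred on its mean. Nearest to Tnfrsf4 were Gpr83, Lrrc32 and Ccr8, with RMS differences of 0.171, 0.203 and 0.217. For Tnfrsf25 they were Il2ra, Folr4 and Tmem176b (0.144, 0.165 and 0.186), and for Tnfrsf18 they were Ephx1, Abhd12b and Trib2 (0.0859, 0.0909 and 0.102). Mdfic, Gadd45b and Rgcc were nearest to Tnfrsf1b (0.0887, 0.0942 and 0.0954). Gpr83 and Abhd12b were listed at 0 in all CD8SP libraries, so their likeness rests on the pseudocount. Lrrc32 and Ccr8 were at 0.91 to 1.16 and 0.84 to 1.18 TPM in CD8SP libraries, so theirs depends on it too. Gpr83, Abhd12b, Lrrc32 and Ccr8 reached the level for testing only through the CD4SP libraries. With a pseudocount of 0.1 the fitted log2 fold change of Gpr83 moved from 4.65 to 7.92 and that of Lrrc32 from 4.75 to 5.58. Gpr83, Lrrc32, Il2ra and Folr4 (Izumo1r) also stood on the regulatory T cell list, and none of these 12 genes is a TNF receptor. Of the receptor pairs that include a called receptor, the closest was Tnfrsf18 and Tnfrsf1b, with an RMS difference of 0.237.

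Neighbouring genes on chromosome 4 did not all share the receptors' difference. Sdf4, which ends 0.232 kb before Tnfrsf4, was at 247, 208 and 252 TPM (CD4SP) against 136, 141 and 123 TPM (CD8SP), a log2 fold change of 0.82 that was not called (limma adjusted p = 0.0033). Ttll10, on the far side of Tnfrsf18, was listed at 0 in all 6 libraries, as was Tnfrsf8 beside Tnfrsf1b, and Vps13d on the other side of Tnfrsf1b had a log2 fold change of 0.05. Around Tnfrsf25 both neighbours were called higher in CD4SP at low levels. Plekhg5, 0.533 kb before it, was at 5.49, 9.49 and 6.53 TPM against 0.19, 0.74 and 1.22 TPM (limma log2 fold change 2.27, adjusted p = 0.00234), and Espn, 0.211 kb after it, at 2.63, 2.62 and 2.75 TPM in CD4SP, with all CD8SP libraries listed at 0 (limma adjusted p = 0.00226). Plekhg5 and Espn both reached the level for testing only through the CD4SP libraries.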

How the data were processed

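Polyadenylated RNA of 1000 sorted cells per library was amplified with a whole-transcriptome kit, and libraries were made with a transposase kit. Per the labels and the study's methods, the authors aligned reads with HISAT2 to mm10 and estimated expression with StringTie. The deposited table holds TPM, 1 column per library, which the authors scaled to a fixed total in each library, so a class that takes a larger share lowers all other values. Annotation, strand use and duplicate removal are not given in the sources used here. TPM keeps no depth, so no counting interval or detection floor was computed, and an exact 0 is given as listed at 0.

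Of 23420 rows, 9818 were 0 in all libraries. The 10476 genes that reached 1 TPM in 3 or more of the 6 libraries were fitted as log2(TPM + 1) with limma 3.58.1 in R 4.3.3, with population as the only term, a mean-variance trend and Benjamini-Hochberg adjustment over all of them. This scale understates the change of low genes, and a fold against a population listed at 0 is not given. Called means an adjusted p under 0.05 and over 2-fold, the study's own criterion. Positive log2 fold changes mean higher in CD4SP. Count tests were not used because TPM are not counts. The fit was tested on simulated data. Both groups carry replicate numbers 1 to 3. Same-numbered libraries had correlations of 0.0515, -0.0168 and 0.0887 of their deviations from the group means, so the numbers were not taken to pair libraries.

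The 10 receptor genes and the gene lists were chosen with earlier results of these data known. Named were all 10 genes, called genes of each list (only some of them for the regulatory T cell list) and ligands of called receptors. The 3 genes most like each called receptor, the nearest gene on either side of each, and cell type markers were named too. Other genes were named after their values were seen. A single item of the sort and marker lists is not reported here. The alternatives tried were median-of-ratios and quantile rescaling, a filter at 5 TPM or none at all, 0.1 as pseudocount, no trend, library weights, a replicate block, the adjusted p alone, and leaving out each library. Removing ribosomal protein genes and averaging CD8 replicates 1 and 2 were chosen after seeing the data. Positions are 1-based, from GENCODE M21 (GRCm38, the assembly of mm10). Promoters are from RefSeq (GRCm38.p6). Near-identical copies (at least 95% identity over at least 200 nt) were searched with blastn 2.17.0 in the annotated transcripts.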

Additional observations from a re-analysis of the deposited data

How the results depend on the processing

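Tnfrsf4, Tnfrsf18, Tnfrsf25 and Tnfrsf1b were called higher in CD4SP under all 16 alternatives, and 4 receptor genes were called in each except without CD4 replicate 1, where Tnfrsf9 made 5. The 1019 genes called over all tested (830 higher in CD4SP, 189 in CD8SP) became 2183 with the adjusted p alone, and the 10 called genes of the ligand, adaptor, death domain and NF-kB lists became 18. Those 10 became 7 after median-of-ratios or quantile rescaling, without ribosomal protein genes and without CD8 replicate 3. Of all calls 81.5% were higher in CD4SP, against 61.4% after median-of-ratios rescaling (788 called), 57.1% after quantile normalization (777) and 72.6% without ribosomal protein genes (936), and the median log2 fold change of 0.284 became 0, -0.015 and 0.145. Leaving out 1 library at a time gave 752 to 1042 called genes. Tnfrsf1a changed sign under median-of-ratios (-0.0361) and quantile rescaling (-0.0533), as the general shift was taken out. Tnfrsf14 ranged from -1.30 to 0.0499 when 1 library was left out, positive only without CD4 replicate 2. With the replicate block 997 genes were called, 959 of them shared with the main 1019, no receptor gene gained or lost its call, and Tnfsf9 (adjusted p = 0.015) and Foxp3 (0.0438) gained one. Only replicate 3 correlated best with its own number. Depth is unknown, so how far it limits the low values of Tnfrsf14, Tnfrsf8 and the OX40, GITR and DR3 ligands cannot be given.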
